A study of Rattus norvegicus with 20 samples.

Results

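The set described here holds 10 genes: Acan, Hapln1, Chad, Coch, Cilp, Ibsp, Tnmd, Cpxm2, Scx and Sox9. Most are known for the matrix of cartilage, tendon or bone, or for the cells that lay it down. Coch and Cpxm2 are described below without such a role. The set was followed in the right ventricle of rats with chronic pulmonary embolism. Members were found on the array by gene symbol, as every probe set whose only symbol in the platform annotation is one of these names. This gave 12 probe sets for 8 of the 10 genes, out of 31042 probe sets tested and 14217 genes with a symbol of their own. Hapln1 has 3 probe sets, Acan and Cpxm2 have 2 each, and the other 5 genes have 1 each. Cilp, cartilage intermediate layer protein, and Sox9, the transcription factor that sets chondrocyte fate, are not named in that annotation and were not analysed here. Several members were chosen by their high signal in the outflow tract after embolism. Their values in those arrays are therefore given as a description, without a test.

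The 20 arrays came from male Sprague Dawley rats of about 350 g, with 5 arrays in each of 4 groups: PE outflow, vehicle outflow, PE apex and vehicle apex. PE rats received 2000000 polystyrene microspheres of 25 microns per 100 g body weight through the right jugular vein, carried in 0.01% Tween-20, which lodge in lung vessels and load the right ventricle. Vehicle rats received 0.01% Tween-20 alone. The design text gives PE rats a larger injection volume per 100 g body weight than vehicle rats. Effects of volume and of microspheres thus cannot be told apart. Hearts were taken at 6 weeks and perfused briefly, and the right ventricle was cut into the outflow tract, which is its base, and the apex. The labels name no strain other than Sprague Dawley, no transgene and no further treatment, and they do not say whether valve or pulmonary artery wall was trimmed from the outflow piece. Each sample was a block of whole tissue, so fewer cells of a type and less RNA per cell cannot be told apart in any value below.

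Cartilage matrix is a gel of aggrecan chains held on hyaluronan by link protein inside a net of type II collagen. Tendon is built from parallel type I collagen fibres made by cells that use the transcription factor scleraxis and carry tenomodulin on their surface, and bone matrix adds acidic proteins that bind mineral. In the heart these genes are known from the leaflets and supporting tissue of the valves and from the wall of the great arteries. Normal ventricular muscle is known to use most of them little. Scx was bright here also in vehicle rats, with mean signals of 1290 in outflow and 1265 in apex arrays.

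One array stood furthest apart and bears on most members. PE outflow replicate 2 had a GAPDH 3'/5' signal ratio of 6.12, a measure that goes up with RNA breakdown or short cDNA, while the other 4 PE outflow arrays lay between 1.70 and 2.34. The remaining 15 arrays lay between 1.38 and 1.83. The mean correlation of PE outflow replicate 2 with the other arrays of its group was 0.929, and no other array was below 0.958. Signals are linear intensities that the authors scaled to a common level on every array, and fold changes here are on the scale of log2(signal + 16), which understates the change of dim genes. At that scale 25 of the 60 member values in PE outflow arrays lay below their own array's median signal, against 54 of 60 in vehicle outflow, 55 of 60 in PE apex and 55 of 60 in vehicle apex arrays. Outside the PE outflow group these genes were thus mostly dim.

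The promoters of 4 members that were high in PE outflow arrays are printed because members with a like pattern over the 20 arrays can be compared there for the motifs of transcription factors known from skeletal tissue. The sequences are RefSeq's on assembly GRCr8, from 250 bases before to 50 bases after the start of the gene, on the gene's own strand. Capitals mark matches, on either strand, to any of 5 short motifs. A Sox core reads either CAAAG or else the variant CAATG, and has A or T in front of it. An E-box, the class of site that scleraxis binds, reads CANNTG with any base at each N. A Runx core reads TGTGGT, the core of the TATA box was searched as TATAAA, and the last motif is the CCAAT box.
Ibsp, chr14:5757193-5757492, minus strand: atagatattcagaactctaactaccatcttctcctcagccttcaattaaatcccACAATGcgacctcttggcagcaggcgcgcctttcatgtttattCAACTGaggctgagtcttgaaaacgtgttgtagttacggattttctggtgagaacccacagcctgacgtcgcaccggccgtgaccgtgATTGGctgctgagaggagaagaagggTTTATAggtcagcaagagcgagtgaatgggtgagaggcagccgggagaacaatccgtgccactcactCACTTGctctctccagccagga
Chad, chr10:80008795-80009094, plus strand: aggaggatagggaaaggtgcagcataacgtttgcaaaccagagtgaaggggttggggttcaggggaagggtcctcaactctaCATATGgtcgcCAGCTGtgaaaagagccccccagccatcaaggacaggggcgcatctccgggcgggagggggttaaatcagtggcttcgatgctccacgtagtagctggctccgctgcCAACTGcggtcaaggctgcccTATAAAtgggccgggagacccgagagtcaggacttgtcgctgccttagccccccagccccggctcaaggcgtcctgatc
Hapln1, chr2:22366717-22367016, plus strand: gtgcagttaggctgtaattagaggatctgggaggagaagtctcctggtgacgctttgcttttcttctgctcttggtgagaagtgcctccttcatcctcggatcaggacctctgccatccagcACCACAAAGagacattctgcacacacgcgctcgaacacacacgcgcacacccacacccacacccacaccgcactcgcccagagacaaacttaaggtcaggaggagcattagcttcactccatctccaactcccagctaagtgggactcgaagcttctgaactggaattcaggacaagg
Cpxm2, chr1:196377298-196377597, minus strand: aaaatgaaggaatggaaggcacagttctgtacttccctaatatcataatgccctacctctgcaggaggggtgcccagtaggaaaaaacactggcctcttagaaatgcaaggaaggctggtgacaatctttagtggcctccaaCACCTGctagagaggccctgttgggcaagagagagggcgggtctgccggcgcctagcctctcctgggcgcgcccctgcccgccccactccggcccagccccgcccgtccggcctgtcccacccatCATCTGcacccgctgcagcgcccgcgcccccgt
The Ibsp window holds a TATA core and a CCAAT, both in reverse orientation, beginning 39 and 65 bases before the start, the arrangement this rat gene is known for. In Chad the TATA core lies forward, 29 bases before the start. Hapln1 has a run in which a Runx core on the reverse strand, from 128 bases before the start, overlaps a Sox core on the forward strand, from 125 bases before. Cpxm2 has E-boxes and none of the other motifs. RefSeq's table held a promoter for 8 of the 10 members, without Sox9 and Scx. Of these 8, 5 held an E-box against 72.1% of all 33469 promoters, 3 a Sox core against 44.9%, 3 a TATA core against 14.2%, 2 a Runx core against 17.3% and 1 CCAAT against 37.5%. A match is a stretch of letters and says nothing of binding.

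Aggrecan and its link protein were brighter in PE outflow than in vehicle outflow arrays, from a dim base. Acan encodes aggrecan, the large proteoglycan that lets cartilage hold water. Its brighter probe set read 157, 115, 309.8, 233 and 186 in PE outflow replicates 1 to 5, against 8.19, 60.9, 92.2, 52.9 and 55.6 in vehicle outflow replicates 1 to 5. All 5 PE outflow arrays lay above all 5 vehicle outflow arrays. The change was 1.71 ± 0.45 log2 (SE), or 3.27-fold higher. On the other Acan probe set the change was 1.13 ± 0.51 and the groups overlapped, with PE outflow at 25.9 to 233 and vehicle outflow at 13.1 to 133.

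Hapln1 encodes the link protein that fixes aggrecan to hyaluronan and is known in mouse heart development for its part in forming valves and septa. Its brightest probe set read 117, 13.3, 119, 99.3 and 70.6 in PE outflow arrays, against 19.9, 26.6, 42.0, 46.2 and 5.55 in vehicle outflow arrays. Replicates 1, 3, 4 and 5 of PE outflow lay above every vehicle outflow array, and replicate 2 lay within their range. The 3 Hapln1 probe sets gave changes of 1.09 ± 0.42, 0.73 ± 0.33 and 1.22 ± 0.33 log2.

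Chad and Coch, which encode secreted proteins of the matrix, showed 2 different patterns over the PE outflow arrays. Chad encodes chondroadherin, a leucine-rich repeat protein that binds collagen and chondrocytes. It read 129, 71.0, 369.7, 218 and 174 in PE outflow arrays, against 18.5, 8.86, 43.4, 45.5 and 56.0 in vehicle outflow arrays, without overlap, a change of 1.98 ± 0.38 log2 or 3.95-fold higher. Coch encodes cochlin, best known from the matrix of the inner ear. It read 166, 112, 724, 790.2 and 17.5 in PE outflow arrays, against 8.24, 27.0, 65.2, 14.9 and 8.68 in vehicle outflow arrays. Replicates 3 and 4 carried most of the Coch signal, and replicate 5, which was high for most other members, lay among the vehicle arrays. The Coch change of 2.56 ± 0.64 log2 was 2.09 without PE outflow replicate 4 and 3.23 without replicate 5, the ends of its range without single arrays.

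Ibsp, bone sialoprotein, an acidic protein that binds mineral in bone and calcified cartilage, had the widest spread of all. Its signals were 1230.2, 5.88, 245, 333 and 477 in PE outflow arrays, against 32.4, 4.16, 11.7, 8.18 and 5.41 in vehicle outflow arrays. Replicates 1, 3, 4 and 5 of PE outflow were above every vehicle array, and replicate 2 was at the vehicle level, so the highest PE outflow array was 209-fold above the lowest. In the apex Ibsp read 37.4, 5.29, 11.01, 4.13 and 8.68 in PE arrays, against 8.13, 28.9, 6.32, 4.41 and 9.50 in vehicle arrays, with the groups overlapping fully. The outflow change was 3.28 ± 0.68 log2, or 9.73-fold higher, and 2.72 without PE outflow replicate 1 and 4.18 without replicate 2, the ends of its range without single arrays.

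Tnmd, a membrane glycoprotein of mature tendon cells that is also known from the tendinous cords of the heart valves, was higher in every PE outflow array. It read 404, 805, 292, 585 and 782 in PE outflow arrays, against 62.3, 76.2, 75.5, 80.5 and 63.5 in vehicle outflow arrays. In the apex it read 59.5, 103, 62.0, 113 and 92.6 in PE arrays, against 57.2, 69.1, 29.96, 29.91 and 28.7 in vehicle arrays. No outflow values overlapped, and every PE outflow array was above every apex array. The outflow change was 2.66 ± 0.26 log2, or 6.32-fold higher, and PE outflow replicate 2 was here the highest array rather than the lowest.

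Cpxm2, a secreted member of the metallocarboxypeptidase family that lacks the family's enzyme activity, was brighter in PE outflow on both its probe sets. Its brighter probe set read 735, 521, 1581, 1854 and 1952 in PE outflow arrays, against 109, 44.7, 133, 68.2 and 60.9 in vehicle outflow arrays. The lowest PE outflow array was thus far above the highest vehicle array, and both probe sets separated the groups. In the apex that probe set read 72.1, 78.3, 98.5, 109 and 109 in PE arrays, against 85.7, 75.9, 85.5, 79.8 and 68.8 in vehicle arrays, which overlapped. The outflow changes on the brighter and the dimmer probe set were 3.66 ± 0.31 and 3.72 ± 0.43 log2, or 12.7-fold and 13.2-fold higher.

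Scx ran the other way in each of its comparisons of PE with vehicle. It encodes scleraxis, the transcription factor of tendon progenitors, which in mouse is also found in developing heart valves. Scx read 644, 698, 581, 416 and 367 in PE outflow arrays, against 1539.6, 1272, 977, 1292 and 1369.7 in vehicle outflow arrays. In the apex it read 767, 729, 836, 698 and 722 in PE arrays, against 1366, 1367, 1188, 1026 and 1377 in vehicle arrays. Neither pair of groups overlapped, and in the vehicle groups Scx was the only member with signals above the array median throughout. The outflow change was −1.26 ± 0.16 log2, or 2.39-fold lower in PE.

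**Figure D1:**
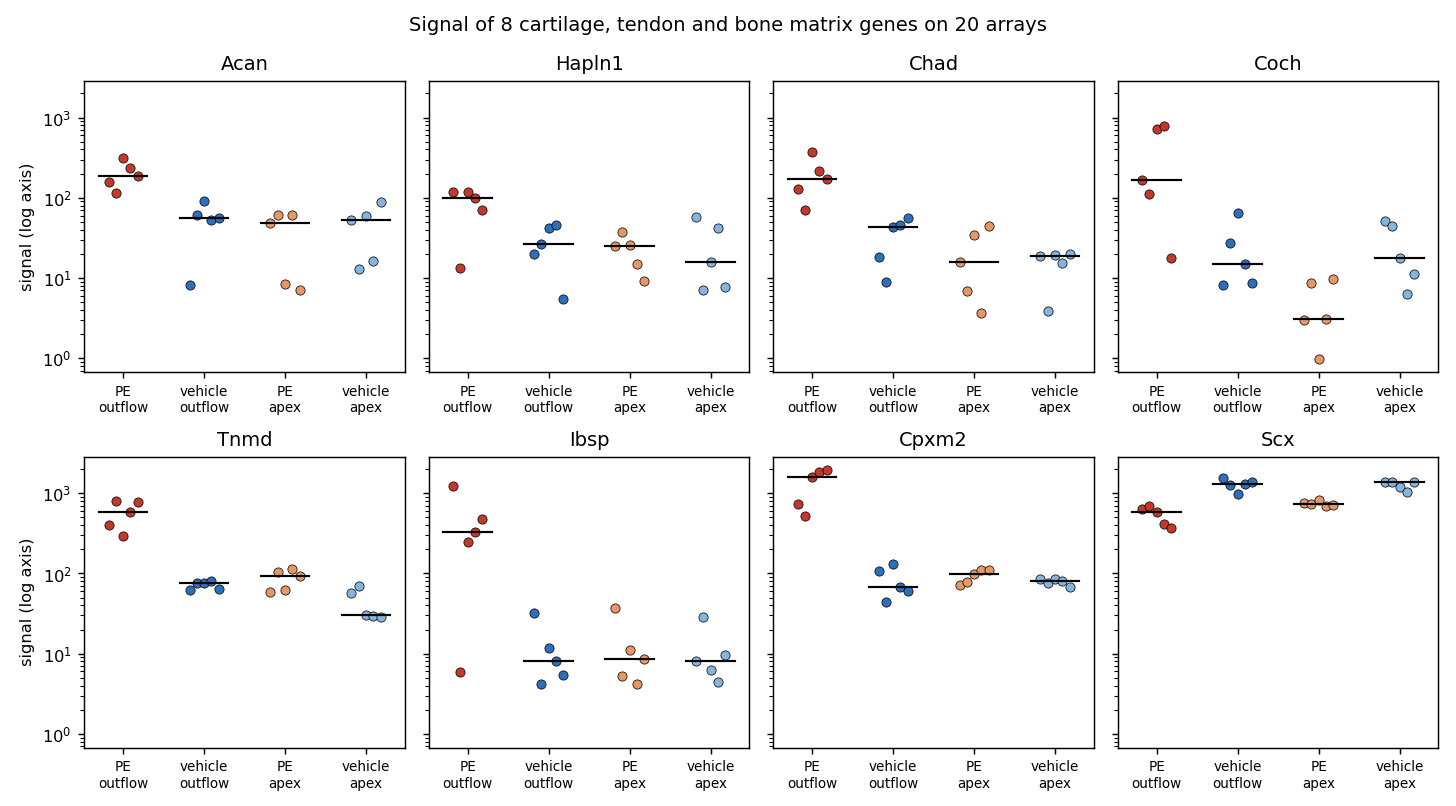
Signal (log axis) of the brightest probe set of each of the 8 genes on all 20 arrays, 1 point an array, with a bar at the group median, for PE outflow, vehicle outflow, PE apex and vehicle apex. Cpxm2 and Tnmd stand clear of all other groups in PE outflow, Ibsp, Coch and Hapln1 each have a PE outflow array at the vehicle level, and Scx is lower in both PE groups than in both vehicle groups.

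Counted over probe sets, 5 of the 12 had all PE outflow arrays above all vehicle outflow arrays, and 1 of 12, Scx, had all below. Over the whole array 13.4% of probe sets lay wholly above and 9.98% wholly below, but nothing is read from these counts, since PE outflow signal chose members. The median change of the 12 was 1.85 log2, beside 0.05 over all probe sets. Set against PE apex arrays, which share the PE outflow arrays with the comparison above, 7 of 12 probe sets in PE outflow lay wholly above and 0 below, beside 11.5% and 8.64% of all probe sets, with a median change of 2.30 log2.

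Members were tested only between groups other than PE outflow. The fit pools the spread of all 20 arrays, PE outflow included, which sets wide errors for members that scattered there: Ibsp had an SD of 2.17 log2 in PE outflow, 0.57 in PE apex and 0.45 in vehicle apex arrays, and an SE of 0.68 in every comparison of 2 groups. The same tests are therefore also given from a fit of the 15 arrays outside PE outflow. In the apex, PE against vehicle, 0 of 12 probe sets passed limma's moderated test at an adjusted p under 0.05 (Benjamini-Hochberg over 31042 probe sets), beside 0.0129% of all probe sets that were called higher and 0% lower. At an unadjusted p under 0.05 it was 2 of 12, Scx and Tnmd, beside 7.47% of all. In the fit of 15 arrays it was 0 of 12 at the adjusted threshold and 3 of 12, Scx, Tnmd and Coch, at the unadjusted one, beside 10.7% of all. Changes ran from −0.89 to 0.81 log2, with 6 of 12 above 0 and a median of 0.02, beside 0.00 over all probe sets.

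Scx had the smallest p of the members in the apex. It averaged 750.3 ± 53.8 in PE apex and 1265 ± 155 in vehicle apex arrays (SD, n = 5 each), a change of −0.73 ± 0.16 log2 with a limma adjusted p of 0.165. All 5 PE apex arrays lay below all 5 vehicle apex arrays, as did 1.5% of all probe sets. The direction was that of the outflow tract, and the test was missed in 30 of 32 alternative settings: adjusted p was 0.0434 with array weights, 0.0405 when PE outflow replicates 1 and 3 alone stood for their group in the shared fit, 0.0651 in the fit of 15 arrays, and at most 0.362 elsewhere. Tnmd averaged 86.1 ± 24.3 in PE apex and 43.0 ± 18.9 in vehicle apex arrays (SD, n = 5 each), a change of 0.81 ± 0.26 log2 and a limma adjusted p of 0.394, or 0.156 in the fit of 15 arrays. In PE apex 3 of the 5 arrays were above all vehicle apex arrays. For Coch, which read at most 9.65 in PE apex and at most 51.7 in vehicle apex arrays, the change was −0.89 ± 0.64 and the limma adjusted p 0.81, against ± 0.35 and 0.381 in the fit of 15 arrays.

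Between the outflow tract and the apex of vehicle rats no member passed the test, with the arrays taken as unpaired or as pairs of 1 rat. In the unpaired comparison 0 of 12 probe sets, and 0% of all, passed limma's test, and 1 of 12 had an unadjusted p under 0.05, beside 3.71% of all. Tnmd had the largest difference, at 71.6 ± 8.21 in vehicle outflow and 43.0 ± 18.9 in vehicle apex arrays (SD, n = 5 each), or 0.62 ± 0.26 log2. Chad followed at 34.4 ± 19.8 in vehicle outflow and 15.4 ± 6.72 in vehicle apex arrays, or 0.61 ± 0.38 log2. With arrays of the same number taken as pairs, Tnmd was higher in the outflow tract in 5 of 5 vehicle pairs and Chad in 4 of 5. These were the 2 of 12 probe sets at an unadjusted p under 0.05 with the rat as a replicate block among vehicle arrays, beside 4.87% of all, and both had a limma adjusted p of 0.964 there. The remaining 10 probe sets lay between −0.08 and 0.25 log2. The dim signals of most members limit what this comparison could show.

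**Figure D2:**
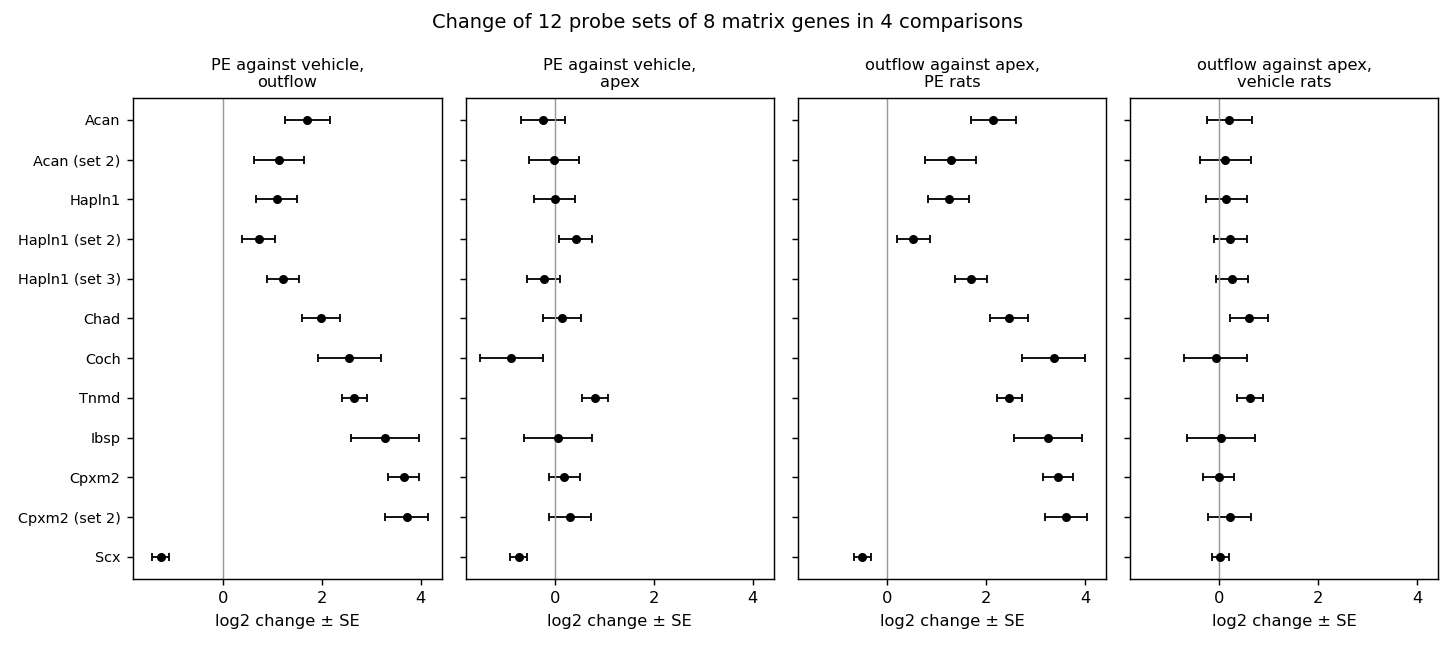
Change of each of the 12 member probe sets on the log2(signal + 16) scale, as a point with its standard error, in 4 panels: PE against vehicle in the outflow tract and in the apex, and outflow against apex in PE and in vehicle rats. Points lie right of 0 in both panels that hold PE outflow arrays, Scx excepted, and within 0.5 log2 of 0 in the apex and in vehicle rats, apart from Tnmd, Coch and Scx in the apex and Tnmd and Chad in vehicle rats.

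The 5 PE outflow arrays did not rank the members alike. Replicate 2 was the lowest array for 5 of the 8 genes (Acan, Hapln1, Chad, Ibsp and Cpxm2) and the highest for Tnmd and Scx. Replicate 3 was the highest for Acan, Hapln1 and Chad, replicate 1 for Ibsp, replicate 4 for Coch and replicate 5 for Cpxm2. From the highest to the lowest PE outflow array the signal differed 1.90-fold for Scx, 2.71-fold for Acan, 2.75-fold for Tnmd, 3.75-fold for Cpxm2, 5.21-fold for Chad, 8.93-fold for Hapln1, 45.1-fold for Coch and 209-fold for Ibsp. Across all 20 arrays each gene's log2 signal was set against the mean of the other 7: Pearson's r was 0.89 for Cpxm2, 0.85 for Chad, 0.81 for Coch, 0.79 for Ibsp, 0.77 for Acan, 0.73 for Tnmd, 0.72 for Hapln1 and −0.74 for Scx. These r values describe arrays that share the split of PE outflow from the rest, by which members were chosen.

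**Figure D3:**
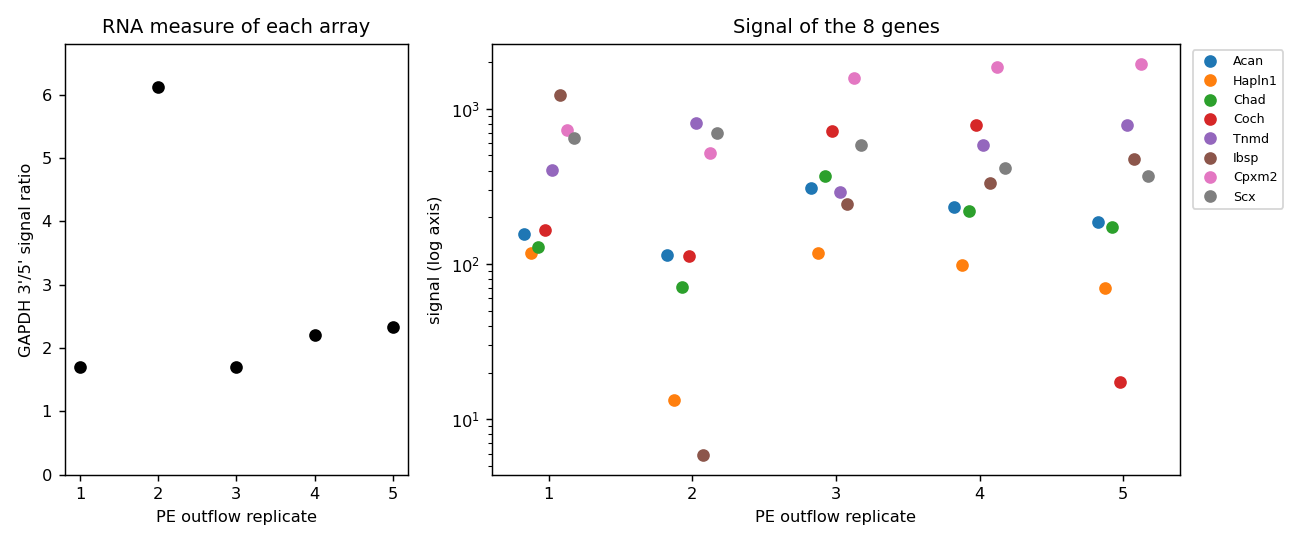
Left, the GAPDH 3'/5' signal ratio of the 5 PE outflow arrays by replicate; right, the signal (log axis) of the brightest probe set of the 8 genes on the same arrays, 1 colour a gene. Replicate 2, at a ratio of 6.12, is lowest for Acan, Hapln1, Chad, Ibsp and Cpxm2 and highest for Tnmd and Scx.

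The array with the high GAPDH ratio was the lowest for 5 of the 8 genes but not for Tnmd, Scx or Coch, and the part of the ratio was looked at in 3 refits only. With the ratio as a covariate the outflow change was 5.09 log2 for Ibsp, 4.06 for Cpxm2, 3.09 for Coch, 2.53 for Chad, 2.27 for Tnmd, 1.96 for Acan, 1.96 for Hapln1 and −1.34 for Scx. With PE outflow replicates 1 and 3 alone, the arrays with ratios of 1.71 and 1.70, the changes were 4.41, 3.54, 3.33, 2.34, 2.04, 1.91, 1.70 and −1.04 in the same order. All 8 brightest probe sets thus kept their direction in those arrays. Without replicate 2, the Tnmd change was 2.52 and the Cpxm2 change 3.95.

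Other genes of cartilage, tendon and bone were set beside the members from lists of 61 genes, of which 51 were measured. With 1 probe set a gene, the brightest, 37 of the 51 rose in PE outflow against vehicle outflow, 2 fell and 12 did not pass limma's test at an adjusted p under 0.05. Over all 14217 genes 26.3% were called higher and 18% lower. The median change of the 51 was 1.56 log2, beside 0.10 over all genes. These lists were drawn up with results of the same arrays known. Genes given with their changes in each of these lists below were picked for the smallest outflow p-values of that list. Nothing is therefore read from those p-values, and counts that use PE outflow arrays are given as a description.

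Of 19 measured cartilage genes, 12 rose and 0 fell. Comp, cartilage oligomeric matrix protein, read 347 to 2638 with a median of 1740.2 in PE outflow, against 19.8 to 51.0 with a median of 41.1 in vehicle outflow arrays, a change of 4.78 ± 0.39 log2 with a limma adjusted p of 7.19e-08. Every PE outflow array was above every vehicle outflow array, and replicate 2 was the lowest of the PE outflow arrays. Col2a1, type II collagen, read 2596, 66.7, 2222, 205 and 357 in PE outflow replicates 1 to 5, against 3.38 to 42.6 in vehicle outflow arrays, or 3.81 ± 0.73 log2 (limma adjusted p = 0.000359). Its 2 dimmer probe sets, at 0.41 and 0.30 log2, did not pass. Comp and Col2a1 were picked by their small outflow p-values, so nothing is read from these p-values. Vcan, a proteoglycan of soft matrix, rose by 2.67 ± 0.35, Col9a3, a chain of type IX collagen, by 2.63 ± 0.21, Prelp, a leucine-rich repeat proteoglycan, by 1.48 ± 0.21, and Cytl1, a small protein secreted by chondrocytes, by 1.43 ± 0.20 log2.

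Tendon and ligament genes rose in 12 of 14 cases, and 0 fell. The list does not mark tendon alone, since some of its genes were very bright in vehicle rats. Vehicle outflow medians ran from 34.1 for Tnc and 90.6 for Thbs4 to 6966 for Col1a1, 14264 for Lum and 27110 for Dcn. Mkx and Kera, also on the list, had no probe set, and the member Scx was lower in PE. Thbs4, a thrombospondin of tendon and muscle attachments, averaged 1163 ± 207 in PE outflow and 86.2 ± 47.4 in vehicle outflow arrays (SD, n = 5 each), or 3.65 ± 0.31 log2. Bgn, the proteoglycan biglycan, rose by 2.47 ± 0.20 and Col12a1, a collagen on the surface of fibrils, by 2.05 ± 0.21 log2. Col1a2 and Col5a1, chains of fibril collagens, rose by 1.67 ± 0.18 and 1.65 ± 0.15, and Col14a1, another collagen of fibril surfaces, by 1.57 ± 0.16 log2. Limma adjusted p-values of these 6 genes were at most 9.22e-07, from which nothing is read, since the genes were picked by them. For Col12a1, the 2 dimmer probe sets, at 0.32 and 0.49 log2, did not pass.

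Bone genes rose in 13 of 18 cases and fell in 2, Phospho1 and Ank. Bglap, osteocalcin, averaged 217 ± 175 in PE outflow and 6.96 ± 7.41 in vehicle outflow arrays (SD, n = 5 each), or 2.95 ± 0.43 log2. Omd, osteomodulin, which binds mineral, rose by 2.35 ± 0.32, Alpl, the alkaline phosphatase that frees phosphate for mineral, by 2.27 ± 0.23, Pth1r, the receptor of parathyroid hormone, by 1.38 ± 0.18, and Sparc, osteonectin, by 0.82 ± 0.11 log2. Phospho1, a phosphatase known from mineralising cartilage and bone, ran against them at 372 ± 199 in PE outflow and 1363 ± 165 in vehicle outflow arrays, a change of −2.0 ± 0.26 log2. Limma adjusted p-values of these 6 genes were at most 2.62e-05, and nothing is read from them for the same reason as in the other lists.

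In the apex 0 of these 51 genes passed limma's test, beside 0.0211% of all genes called higher and 0% lower. Their median change there was 0.23 log2, beside 0.00 over all genes. Thbs4 came nearest, with 226 to 409 in PE apex and 38.0 to 149.9 in vehicle apex arrays, no overlap, and 1.83 ± 0.31 log2 at a limma adjusted p of 0.0713. It passed in 9 of 32 alternative settings, where adjusted p over all of them ran from 0.0101 to 0.202. The outflow effect of embolism differed from the apex effect for 26 of the 51 genes by limma's test of the difference, 25 with the larger value in the outflow tract and 1, Phospho1, with the smaller, beside 14.1% and 10.2% of all genes. In vehicle rats 0 of 51 genes, and 0% of all, differed between outflow and apex, with a median of 0.05 log2.

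**Figure D4:**
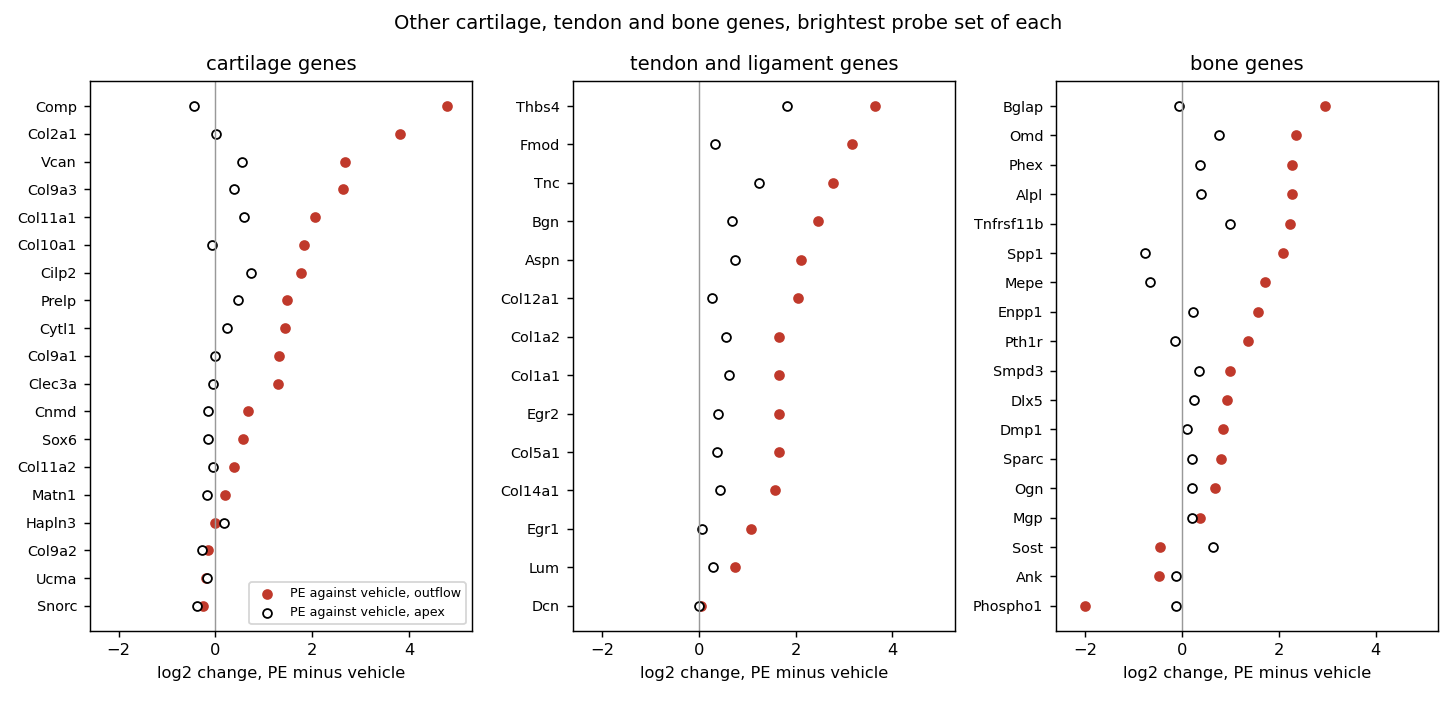
Change, PE minus vehicle, on the log2(signal + 16) scale for the brightest probe set of each of 51 other genes, in panels for cartilage, tendon and ligament, and bone; filled points are the outflow tract and open points the apex. Most outflow points lie right of 0, led by Comp, Thbs4 and Bglap in their panels, while Phospho1 lies at −2.0.

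Markers of other tissues that the outflow block could hold were counted in the same comparison. Heart valve, arterial wall, fibroblast and macrophage genes were mostly higher in PE outflow, as most members were. Each count of a marker list stands beside 26.3% of all 14217 genes called higher and 18% called lower. Of 11 measured heart valve genes, 7 rose in PE outflow, 1 fell (Msx2) and 3 did not pass (Cnmd, Adamts19 and Adamts5), with a median of 0.81 log2. Their summed signal was 8053 to 21402 in PE outflow, 3552 to 6786 in vehicle outflow, 5183 to 6059 in PE apex and 4606 to 5575 in vehicle apex arrays. All 5 PE outflow arrays were above all other arrays. Replicate 2, in which 5 members were at their lowest and the GAPDH ratio was 6.12, had the lowest sum of the 5. It also had the lowest sum of the 5 for macrophage, arterial wall, atrial muscle, other cartilage and other tendon genes. For bone, fibroblast, endothelial, epicardial, fat, cardiomyocyte, skeletal muscle and blood genes it did not. The brightest genes of the valve list in PE outflow were Postn, Cdh11 and Vcan, with median signals of 5901, 4086 and 3009. Their medians in vehicle outflow arrays were 519, 1774 and 372. Postn, periostin, rose by 2.81 ± 0.46 and Cdh11, a cadherin of valve cells and fibroblasts, by 1.15 ± 0.27 log2. Their limma adjusted p-values were 7.39e-05 and 0.00208. Nothing is read from these p-values, since the genes were named for their brightness with PE outflow arrays included. Cnmd, chondromodulin, which is known from cartilage and heart valves, read 9.81 to 89.0 in PE outflow and 8.20 to 38.4 in vehicle outflow arrays, at 0.67 ± 0.32 log2 and a limma adjusted p of 0.124. Of the list as fixed, 3 genes (Cnmd, Vcan and Prg4) also stand in the cartilage list, so it does not mark valve tissue alone.

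Arterial wall smooth muscle genes rose in 11 of 13 cases and fell in 2 (Smtn and Synpo2), with a median of 2.06 log2. Their summed signal was 48735 to 91839 in PE outflow, 19607 to 23732 in vehicle outflow, 22738 to 29908 in PE apex and 17115 to 25789 in vehicle apex arrays. Acta2, smooth muscle actin, rose by 2.34 ± 0.29 and Mfap4, a microfibril protein, by 1.96 ± 0.17 log2 in the outflow tract, and Mfap4 by 1.09 log2 in the apex too (limma adjusted p = 0.0212). Synpo2, at −1.04 ± 0.18, gave 2.38, −1.72 and 1.23 log2 on its 3 dimmer probe sets. In PE outflow the lowest sums were in replicates 1 and 2, at 49926 and 48735, which were the arrays with the least Cpxm2 but the most Ibsp (replicate 1) and the most Tnmd and Scx (replicate 2).

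Fibroblast and adventitia genes rose in 8 of 9 cases, with summed signals of 52461 to 67560.2 in PE outflow and 20032 to 24039.9 in vehicle outflow arrays. Macrophage genes rose in 7 of 7 (6889 to 20058 in PE outflow, 4962 to 5847 in vehicle outflow), epicardial genes in 4 of 6 with 1 lower (1305 to 1497 in PE outflow, 614 to 986 in vehicle outflow), and fat genes in 4 of 6 with 1 lower (10659 to 15733 in PE outflow, 9363 to 16650.1 in vehicle outflow). Endothelial genes rose in 2 of 6 with 1 lower, atrial muscle genes in 3 of 6, skeletal muscle genes in 2 of 5 with 1 lower, and blood genes in 0 of 4. Cardiomyocyte genes fell in 8 of 9 cases, with a median of −0.74 log2. Their summed signal was 155874 to 425309 in PE outflow and 341915 to 415883 in vehicle outflow arrays. PE outflow replicate 2, with 425309, was above every vehicle outflow array, and the other 4 were at 223435 or less. No signal on any array was at 0, the lowest being 0.0688, so the absence of a marker could not have been read from a 0. What part attached valve, great vessel wall, fibrous tissue or the share of muscle in the block had in the members' signal was not tested, and with 1 block of tissue a rat and region it cannot be told apart from a change within the ventricle wall.

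**Figure D5:**
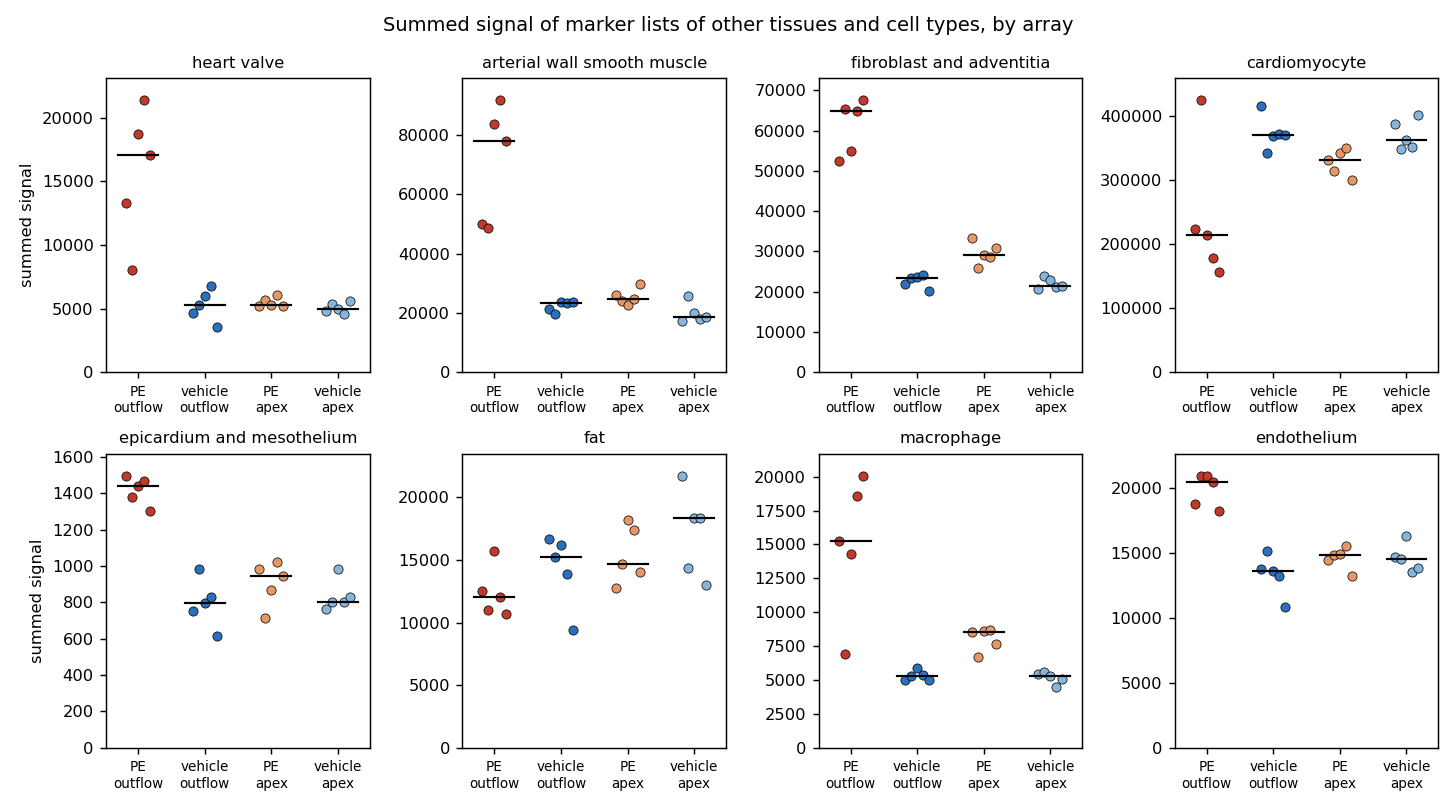
Summed signal of the measured genes of 8 marker lists on each array, 1 point an array with a bar at the group median, for PE outflow, vehicle outflow, PE apex and vehicle apex; each axis starts at 0. Heart valve, arterial, fibroblast, macrophage, epicardial and endothelial sums are above all vehicle outflow arrays in each PE outflow array. The cardiomyocyte sum is below all vehicle outflow arrays in 4 of 5.

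Gene position limits how far Scx, Chad and Cpxm2 can be read. On GRCr8 Scx spans chr7:110056897-110059283, inside the span of Bop1, a ribosome assembly gene, and Chad spans chr10:80009045-80012816, inside the span of Acsf2, an acyl-CoA synthetase gene. The array's probe sequences were not used here, so signal from the longer transcript cannot be told apart from that of the member by position. Bop1 on its own probe set averaged 359 ± 32.6 in PE outflow and 318 ± 32.2 in vehicle outflow arrays (SD, n = 5 each), or 0.17 log2 with a limma adjusted p of 0.401, while Scx was lower. Over the 20 arrays Pearson's r between the log2 signals of Bop1 and Scx was −0.30. Acsf2 ran opposite to Chad, at 1281 ± 261 in PE outflow and 4558 ± 1120 in vehicle outflow arrays (SD, n = 5 each), or −1.81 log2 with a limma adjusted p of 7.42e-08.

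The 6 genes outside the set whose pattern was most like the mean of the 8 members over the 20 arrays, by Pearson's r of log2 signals, were Capn6 at 0.96, Dapk1 at 0.95, Fmod at 0.94, Spsb2 at 0.94, Apcdd1 at 0.94 and Plvap at 0.94. Fmod, fibromodulin, a proteoglycan that binds collagen fibrils, averaged 2247 ± 1258 in PE outflow and 203 ± 77.2 in vehicle outflow arrays (SD, n = 5 each). Plvap, a protein of endothelial pores, averaged 1784 ± 442 in PE outflow and 310.1 ± 71.6 in vehicle outflow arrays. Changes of the 6 genes ran from 0.83 to 3.17 log2 in the outflow tract and from −0.06 to 0.33 log2 in the apex.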

How the data were processed

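Signal intensities of 20 Affymetrix Rat Genome 230 2.0 arrays, 5 a group, were used as deposited. Per the labels, 5 micrograms of total RNA were made into labelled cRNA; the software behind the signals was not given in the sources used here. The authors had scaled the intensities: the mean without the top and bottom 2% was 500 on every array. Of 31099 probe sets, 57 controls were left out and 31042 tested with no filter on low values; 20826 have 1 gene symbol, 436 several and 9780 none. The fit was limma 3.58.1 (R 4.3.3) on log2(signal + 16) over all 20 arrays. It was also run on simulated data with independent normal noise and the same spread in all groups. That run cannot show how the fit handles the wider spread in PE outflow or arrays of the same rat. Groups came from titles. One protocol field describes vehicle injection for all samples; the treatment field does not. Apex and outflow arrays of the same number share a replicate number in the labels: over 12310 probe sets their deviations correlated at 0.18 to 0.28, and each number matched its own best, so the numbers were taken as pairs. Members and lists were chosen with earlier results of these data known. Named genes were all members, the 6 smallest outflow p-values of each skeletal list, the 3 brightest of each marker list and the 6 most alike, and genes named to explain a count of 5 or fewer or a position were picked after their values were seen. In all, 34 alternatives were run.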

Additional observations from a re-analysis of the deposited data

Results flagged for a closer look

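In 4 cases, 3 of them members, a single array lay far from the other 4 of its group, among 60 groups of 5 arrays examined; chance does this in about 1 group in 20. Chad read 3.91 in vehicle apex replicate 2, while the others of that group lay between 15.2 and 20.1. Ibsp read 28.9 in the same array, with the others between 4.41 and 9.50. Hapln1, on its brightest probe set, read 13.3 in PE outflow replicate 2, with the others between 70.6 and 119. That array also had the GAPDH 3'/5' ratio of 6.12, with the others between 1.70 and 2.34.

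The effect of embolism in the outflow tract differed from that in the apex, by limma's test of the difference, for all 18 named cartilage, tendon and bone genes outside the set, each of which was picked for its small outflow p. Among cartilage genes the outflow effect minus the apex effect was 5.22 log2 for Comp, 3.80 for Col2a1, 2.24 for Col9a3, 2.13 for Vcan, 1.19 for Cytl1 and 1.02 for Prelp. Among tendon genes it was 1.82 for Thbs4, 1.79 for Bgn, 1.77 for Col12a1, 1.27 for Col5a1, 1.13 for Col14a1 and 1.10 for Col1a2. Among bone genes it was 3.0 for Bglap, 1.86 for Alpl, 1.58 for Omd, 1.51 for Pth1r, 0.61 for Sparc and −1.88 for Phospho1. Limma adjusted p-values ran from 7.08e-05 for Comp to 0.0219 for Prelp. The outflow change by which these genes were picked is part of the difference tested. Nothing is therefore read from the count of 18 or from these p-values.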

How the results depend on the processing

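The count of members called in the apex was 0, and 1 with array weights and 1 with PE outflow replicates 1 and 3 alone (Scx each time); leaving out single arrays gave 0 to 0. In vehicle rats it was 0 in every setting run. For other skeletal genes the outflow count of 39 was 36 to 41 without single arrays and 32 to 42 in other settings. Their apex count of 0 was 1, Thbs4, without the 40% dimmest probe sets, with offset 64, with intensity trend and robust variances and with array weights, and 0 to 1 without single arrays: it was 1 without PE outflow replicate 2, vehicle outflow replicate 1 or 3, PE apex replicate 2 or vehicle apex replicate 2. The cause was not tested. The replicate block (consensus correlation 0.0651) gave 39 outflow calls, 0 in the apex and 0 in vehicle rats, and changed no call. Signs of member changes held in all 363 outflow values over the alternatives; 21 of 375 apex and 29 of 387 vehicle values, none of them called, changed sign.

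Dim signals limit the members. Without the 40% dimmest probe sets 3 of their 12 probe sets remained, and the Ibsp outflow change was 4.26 log2 at offset 1 and 2.25 at offset 64. Coch gave 3.24 and 1.77, and Chad 2.50 and 1.30. Centring arrays on their medians moved the median outflow change of all probe sets to −0.08 log2. The GAPDH ratio varied mostly within PE outflow, so the values with it as a covariate rest on that group.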
